A study of Mus musculus with 35 samples.

Results

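Levels of 7 transcription factor genes of effector and memory CD8 T cells, Tbx21, Eomes, Prdm1, Zeb2, Id2, Runx3 and Zfp683, were read across all 35 RNA sequencing libraries of the study. The genes were chosen by name, and they are 7 of 38924 genes in the count table, each with a single entry. The libraries were made from total RNA of T cells of C57BL/6 mice that were sorted for CD3e, CD8, high CD44 and low CD62L, which selects antigen-experienced cells. Unstimulated brain cells came from young males (5 libraries), aged males (6) and aged females (5). Brain cells stimulated for 2 h with PMA plus ionomycin, chemicals that switch on T cell activation downstream of the antigen receptor, came from aged males (4) and aged females (5). Spleen cells came from aged males, 5 libraries unstimulated and 5 stimulated in the same way. No genotype other than the strain is labelled, an age in weeks is not given in the sources used here, and no label says whether a library is 1 mouse or a pool, so p-values measure the spread between libraries. The comparisons were brain against spleen, stimulated against unstimulated, aged against young and female against male.

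T-bet (encoded by Tbx21) and Eomes are T-box factors that bind related DNA sites and drive interferon gamma and cytotoxic genes, with T-bet tied to effector cells and Eomes more to memory cells. Blimp-1 (Prdm1) is a zinc finger repressor that promotes terminal differentiation, and Hobit (Zfp683) is its relative, known for acting with Blimp-1 in tissue-resident memory cells. Zeb2 is a repressor induced downstream of T-bet, Id2 is an inhibitor that keeps E proteins from DNA and supports effector survival, and Runx3 maintains the CD8 lineage and supports residency. CD8 T cells in the brain are often described as resident memory cells.

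The stimulated brain libraries stood apart before any gene was examined. Their totals ran from 1.16 to 9.2 M counts with 2271 to 6769 genes detected and 38.5% to 69.7% of counts from mitochondrial genes, against 6.65 to 24.97 M, 6456 to 15174 genes and 8.3% to 20.8% in the other libraries. Of 63 values of the 7 genes in the 9 stimulated brain libraries, 17 (26.98%) were 0 counts, against 7 of 112 (6.25%) in unstimulated brain and 1 of 70 (1.43%) in spleen. A count of 0 there allows a level of up to 0.55 to 2.95 CPM, counts scaled to a library total of 1000000, taking 3 counts as the limit for counting error alone. The summed CPM of 6 CD8 T cell markers was 106 to 402 in stimulated male brain and 2808 to 4204 in unstimulated aged male brain, while that of 6 brain cell markers was 90.6 to 1194 and 66.3 to 642. In female brain the CD8 T cell markers summed to 461 to 1726 stimulated and 1851 to 2912 unstimulated, and the brain cell markers to 367 to 986 and 39.6 to 78.0, neither pair overlapping. Among the brain cell markers, Mbp alone was at 46.5 CPM in unstimulated spleen, so a sum near that level need not mark brain cells. Of 4 stimulated male brain libraries, 1 had counts of the Y-linked gene Ddx3y, so the other 3 gave no check of the labelled sex. Of 5 stimulated female brain libraries, 4 had 161 to 958 counts of Xist, the RNA of the inactive X chromosome, while replicate 27 had 0, so its female label was not borne out. Y-linked genes gave no check of it, with 1 count of Kdm5d in replicate 27, 1 of Uty in replicate 26 and 2 of Eif2s3y in unstimulated female replicate 17. Counts of Xist alone do not mark a female library here. Xist had counts in 5 of 6 unstimulated aged male brain libraries, and 114 counts in stimulated male replicate 19. In bulk RNA, fewer cells of a type and less RNA per cell cannot be told apart. The numbers and hyphens in the sample titles fall into 3 sets, which may mark separate preparations, and the tissue, sex and male brain stimulation comparisons cannot be told apart from these sets. The spleen stimulation and age comparisons lie within a set each. In the female brain stimulation comparison, stimulated replicates 26 and 27 have titles of the spleen set and the other libraries lie in another set. The groups of the interaction between tissue and stimulation span all 3 sets.

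Levels between genes can be set side by side only per length, as the authors' length-scaled transcript abundances (TPM). In unstimulated spleen Eomes was the highest of the 7 at a median of 77.7 TPM, followed by Id2 at 51.6, Runx3 at 42.8, Tbx21 at 23.99, Zeb2 at 13.2, Prdm1 at 7.73 and Zfp683 at 3.45. In unstimulated aged male brain the medians were 35.3 TPM for Eomes, 29.3 for Tbx21, 23.7 for Id2, 19.98 for Zeb2, 15.6 for Runx3, 4.01 for Prdm1 and 2.53 for Zfp683. In unstimulated young male brain they were 71.0 for Id2, 26.9 for Runx3, 25.99 for Tbx21, 25.9 for Eomes, 8.73 for Zeb2, 1.62 for Prdm1 and 0 for Zfp683. The 2 repressors Prdm1 and Zfp683 were thus the lowest in all 3 groups, and Eomes had the highest median in both aged male groups. Aged female unstimulated brain had its highest medians in Id2 at 66.8 TPM and Zeb2 at 59.1. When the 7 groups were ordered by median TPM for each gene, 41 of 42 pairs of neighbouring groups overlapped in their ranges. The exception among these neighbours was Prdm1, for which every stimulated spleen library (10.7 to 18.99 TPM) lay above every unstimulated one (6.22 to 9.21). Groups further apart in the order were not counted, and some did separate. For Id2, aged female unstimulated brain (60.36 to 209.61 TPM) lay above aged male unstimulated brain (3.43 to 50.23). For Tbx21, stimulated male brain (0.84 to 3.33 TPM) lay below stimulated spleen (30.43 to 65.19). RSEM's effective length, by which TPM divides, differed between libraries by up to 7.62 times for Zeb2 and 3.37 times for Prdm1 and by at most 1.05 times for Tbx21, Id2 and Zfp683, so the levels below are given in CPM. CPM depends in turn on a scaling factor per library (TMM). It ran from 1.431 to 1.53 in unstimulated spleen, 0.916 to 1.148 in stimulated spleen and 0.9 to 1.086 in unstimulated aged male brain.

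**Figure D1:**
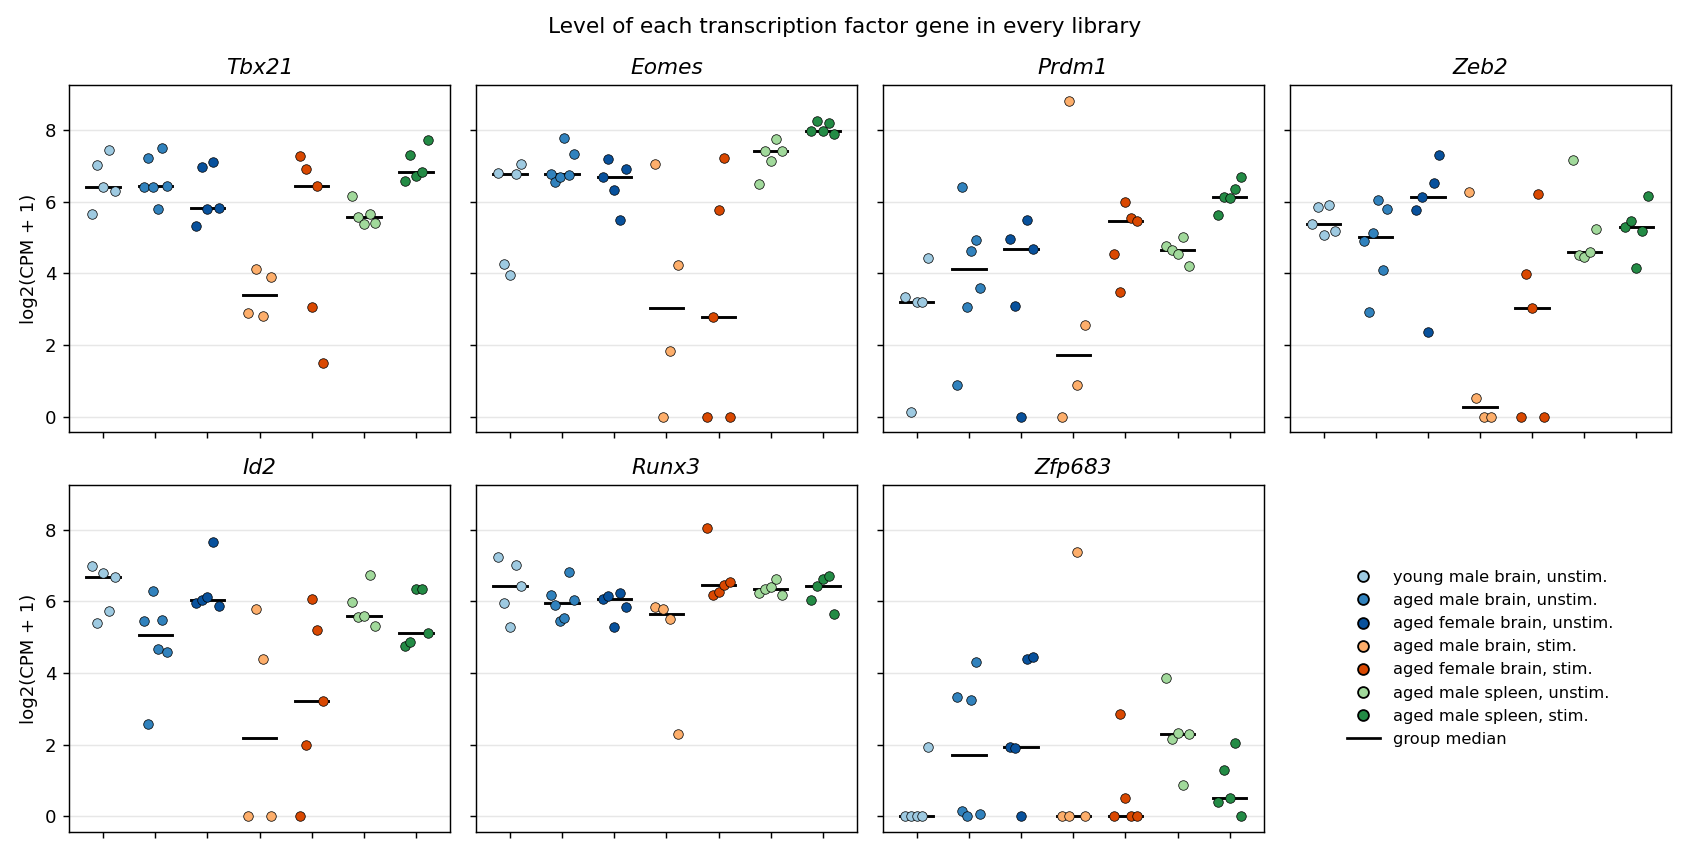
Level of each of the 7 genes in every library, as CPM scaled by TMM over the 35 libraries plotted as log2(CPM + 1) by group; each point is a library and each bar a group median. On this scale Tbx21, Eomes and Prdm1 separate stimulated from unstimulated spleen without overlap, and the stimulated brain groups run from 0 to 451 CPM.

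In spleen, 2 h of stimulation was accompanied by higher Tbx21, Eomes and Prdm1, while Zeb2, Id2, Runx3 and Zfp683 did not pass the test. Tbx21 lies on chr11:97098071-97115331, minus strand, Eomes on chr9:118478212-118486132, plus strand, and Prdm1 on chr10:44437177-44528501, minus strand, all on GRCm38. The 250 bases before the annotated start of these 3 genes are printed because the genes rose together; they come from RefSeq promoters of GRCm38.p6, which held 6 of the 7 genes, and capitals mark a motif match. The windows are chr11:97115332-97115581, minus strand, for Tbx21, chr9:118477939-118478188, plus strand, for Eomes, both outside annotated genes, and chr10:44458749-44458998, minus strand, for Prdm1, inside the annotated Prdm1 gene and in none of its exons.
Tbx21: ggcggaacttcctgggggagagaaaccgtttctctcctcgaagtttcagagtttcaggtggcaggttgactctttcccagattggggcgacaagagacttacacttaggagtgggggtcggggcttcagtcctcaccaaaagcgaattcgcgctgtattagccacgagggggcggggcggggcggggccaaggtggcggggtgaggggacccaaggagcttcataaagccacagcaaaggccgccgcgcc
Eomes: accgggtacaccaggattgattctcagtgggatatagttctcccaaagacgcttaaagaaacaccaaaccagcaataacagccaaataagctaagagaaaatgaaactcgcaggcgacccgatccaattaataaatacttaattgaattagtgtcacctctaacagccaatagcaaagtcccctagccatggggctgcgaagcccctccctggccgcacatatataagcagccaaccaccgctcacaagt
Prdm1: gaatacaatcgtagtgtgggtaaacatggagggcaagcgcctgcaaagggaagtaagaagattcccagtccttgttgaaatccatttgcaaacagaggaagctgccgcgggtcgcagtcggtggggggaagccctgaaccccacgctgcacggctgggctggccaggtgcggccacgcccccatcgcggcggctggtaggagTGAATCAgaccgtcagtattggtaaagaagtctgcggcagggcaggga

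A set of 7 motifs was searched on both strands: AP-1 (TGANTCA, present in 6.75% of 32851 promoter windows of this length), a cyclic AMP response element (TGACGTCA, 1.55%), an NFAT core (TGGAAA, 18.58%), NF-kB (1.41%), a T-box site (AGGTGTNA, 2.68%), Runx (TGTGGT, 14.05%) and STAT (TTCNNNGAA, 7.02%). The Prdm1 window held 1 match, the AP-1 letters TGAATCA at position -48 from the start. The Tbx21 and Eomes windows held none of these letters. A match is only a string of letters in this window. No letters of a match were shared with another motif.

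Tbx21 stood at 70.0, 46.7, 40.4, 49.4 and 41.2 CPM in the 5 unstimulated spleen libraries and at 94.0, 158, 105, 112 and 209 CPM in the 5 stimulated ones. On the CPM scale the lowest stimulated library was above the highest unstimulated library. As TPM the 2 groups overlapped, at 20.46 to 38.6 unstimulated and 30.43 to 65.19 stimulated. The log2 fold change was 1.65 ± 0.24 (SE, n = 5 against 5, adjusted p = 0.00048, edgeR's quasi-likelihood test adjusted over all genes tested). Fold changes here come from a fit of the 2 groups with its own scaling, so they need not equal the ratio of the CPM levels.

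Eomes stood at 89.2, 168, 141, 216 and 171 CPM unstimulated and at 250.3, 304, 253, 293 and 237 CPM stimulated. These groups did not overlap either on the CPM scale, although the gap between 216 and 237 CPM was narrow. As TPM they did overlap, at 48.7 to 112.57 unstimulated and 70.16 to 117.7 stimulated. The log2 fold change was 0.96 ± 0.19 (SE, adjusted p = 0.0042, edgeR's quasi-likelihood test), the smallest of the 3.

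Prdm1 stood at 26.1, 24.1, 22.4, 31.5 and 17.4 CPM unstimulated and at 48.6, 68.5, 68.1, 80.3 and 103 CPM stimulated. All 5 stimulated libraries were above all 5 unstimulated ones. The log2 fold change was 1.79 ± 0.22 (SE, adjusted p = 0.00011, edgeR's quasi-likelihood test), the largest of the 3.

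These 3 of 7 calls, all upward, stand beside a comparison in which 18.7% of 11107 genes were called, 12.6% higher, and 19% had groups that did not overlap. The median over the 7 genes was 0.15 against -0.07 over all genes tested. All 3 were called with any 1 library left out and by DESeq2, and with all 35 libraries in a single fit none of the 3 passed. In that fit the spread is shared with the stimulated brain libraries, and the changes were 1.68, 0.99 and 1.82.

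The other 4 genes overlapped between the spleen groups. Zfp683, the Hobit gene (chr4:134053838-134058996, plus strand), stood at 13.7, 3.48, 4.04, 0.84 and 3.92 CPM unstimulated and at 0.33, 1.44, 0.43, 3.1 and 0 CPM stimulated. Its log2 fold change was -2.12 ± 0.94 (SE, unadjusted p = 0.042, adjusted p = 0.14, edgeR's quasi-likelihood test), on 57 or fewer counts in all but 1 of the 10 libraries. Runx3 (chr4:135120652-135177990, plus strand) stood at 81.9 ± 10.4 CPM unstimulated and 80.3 ± 23 stimulated (SD, n = 5 each), with a log2 fold change of 0.15 ± 0.19 (SE). Id2 (chr12:25093799-25097140, minus strand) changed by -0.09 ± 0.37 (log2, SE). Zeb2 (chr2:44983632-45117395, minus strand) stood at 142, 21.6, 20.9, 22.98 and 36.5 CPM unstimulated and at 38.5, 43.3, 16.7, 35.1 and 70.3 CPM stimulated. The level of 142 CPM was in unstimulated replicate 30, and the log2 fold change of Zeb2 moved from -0.06 ± 0.57 to 0.86 ± 0.36 (SE, adjusted p = 0.14, edgeR's quasi-likelihood test) without that library.

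Markers of other cells moved in the same comparison. The summed CPM of 7 B and plasma cell markers was 43.5 to 57.9 in stimulated and 12.2 to 38.9 in unstimulated spleen, and 3 of the 5 tested rose, Ms4a1 and Cd79a among them (log2 2.25 and 2.13). Prdm1 is also high in plasma cells. Of the plasma cell genes among these markers, Igj did not rise (17.3 CPM unstimulated, 13.6 stimulated), Sdc1 was at 0.31 and 0.052 CPM and Tnfrsf17 was at 0 in all 10 libraries. The NK cell markers, from cells that also express T-bet and Eomes, summed to 1.55 to 13.3 CPM stimulated and 9.2 to 64.7 CPM unstimulated. Ctla4 rose by 3.87 on the log2 scale while Cd4 and Foxp3 did not pass the test, and the CD8 T cell markers had 0 of 6 called. Mitochondrial genes took 14.8% to 20.8% of counts in stimulated and 10.8% to 13.3% in unstimulated spleen, with 13729 to 14689 and 14750 to 15174 genes detected, again without overlap. With mitochondrial genes left out of the counts the calls of Tbx21, Eomes and Prdm1 held. The part of other cells and of RNA quality in these 3 values was not tested.

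Genes that work with the 7 factors were read from 5 lists. Of 18 partner factors tested in stimulated spleen, 9 rose and 1 fell, with a median log2 fold change of 0.7. Irf4, a factor induced by receptor strength that acts with Batf, rose by 5.24 ± 0.37 (log2, SE) from 10.2 to 335 CPM. Nfil3, a basic leucine zipper factor, rose by 4.63 ± 0.41. Of 4 genes tested for E proteins, which Id2 binds, and for its relatives among the Id factors, none was called by edgeR's quasi-likelihood test, with 1 at an unadjusted p under 0.05. In that group the change of Tcf3 was -0.72 on the log2 scale (adjusted p = 0.06, edgeR's quasi-likelihood test) and Tcf12 0.08.

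Of 10 naive and memory factors, 4 rose and 2 fell in stimulated spleen (median 0.7). Bcl6, a repressor that opposes Blimp-1, rose by 2.27 ± 0.33 on the log2 scale, from 9.14 to 38.4 CPM, so both genes of this pair were higher. Satb1, a chromatin organiser, rose by 1.45, and Klf2 and Lef1, factors of quiescent and naive cells, fell by 1.01 and 0.71. Of 12 T-box target genes, 2 rose and 1 fell, and the median was -0.24. Ifng rose by 7.38 ± 0.29 (log2, SE) from 15.6 to 2266 CPM, and Fasl, the death ligand, rose by 1.55. Cxcr3, a chemokine receptor gene activated by T-bet, fell by 1.37 on the log2 scale while Tbx21 was higher. Of 9 genes tested that Blimp-1, Hobit or Runx3 are known to repress, 3 rose and 2 fell (median -0.04). Myc and Ccr7 were higher by 4.75 and 2.5, and S1pr1, the lymphoid exit receptor, and Klf2 were lower by 1.38 and 1.01 on the log2 scale.

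**Figure D2:**
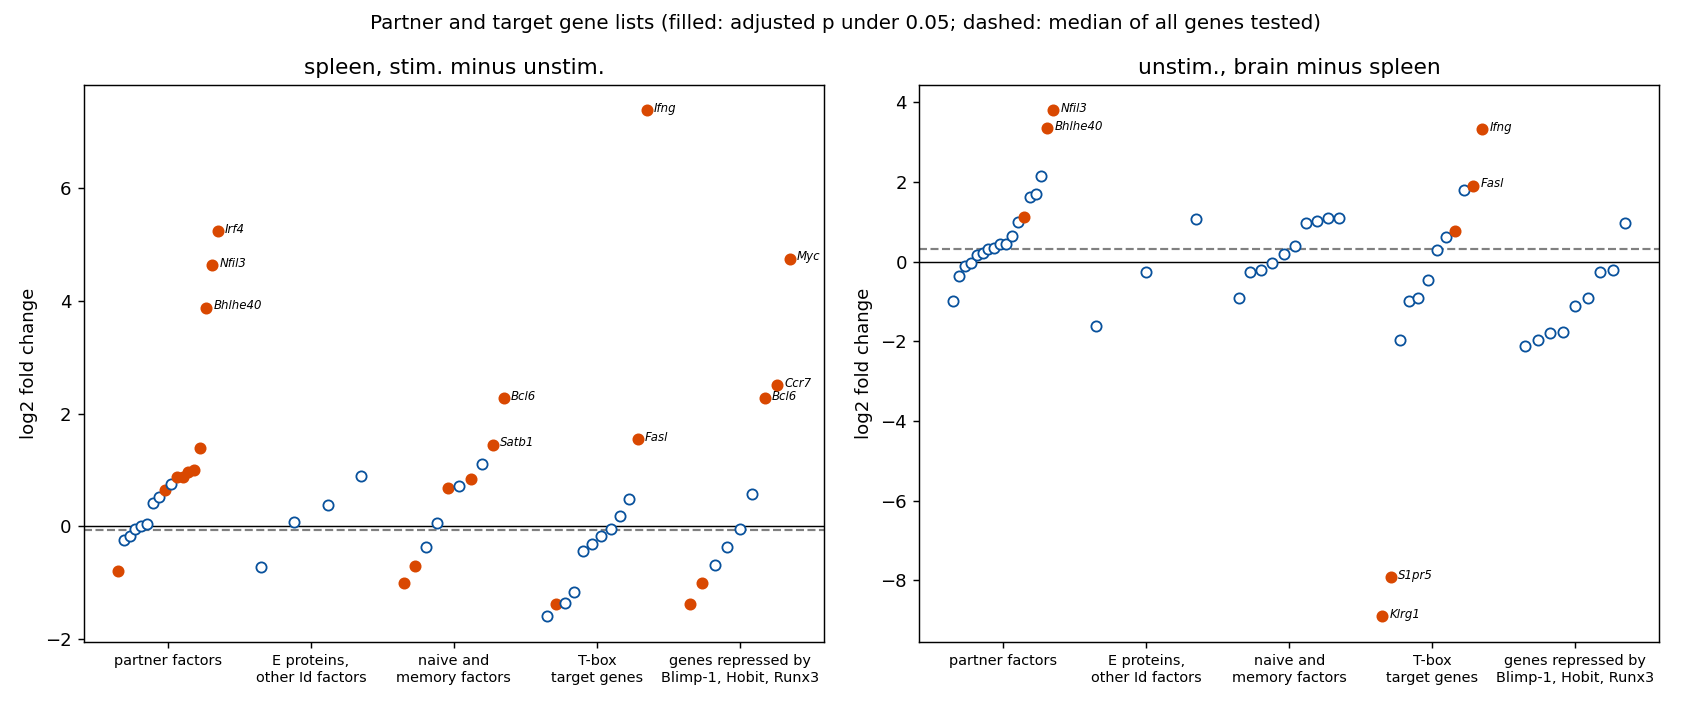
Log2 fold change of the genes tested in 5 lists around the 7 factors, for stimulated against unstimulated aged male spleen and for unstimulated aged male brain against spleen; each point is a gene, filled where the adjusted p was under 0.05, and the dashed line is the median over all genes tested. Filled points lie on both sides of 0 in 4 lists in spleen, and Ifng at 7.38 is the highest.

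Between unstimulated brain and spleen of aged males none of the 7 genes passed edgeR's quasi-likelihood test, in a comparison that called 7.37% of 11040 genes with a median of 0.31. At an unadjusted p under 0.05 there was 1, Tbx21, and DESeq2 also called 1. Tbx21 ran from 54.3 to 181 CPM with a median of 85.4 in the 6 brain libraries, and 5 of the 6 were above the highest spleen library at 70.0. As TPM the tissues lay closer, at 17.81 to 63.56 (median 29.29) in brain and 20.46 to 38.6 (median 23.99) in spleen. Its log2 fold change was 1.14 ± 0.4 (SE, adjusted p = 0.13, edgeR's quasi-likelihood test, 0.053 to 0.3 with 1 library left out). DESeq2 gave 1.17 and an adjusted p of 0.043.

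Eomes ran from 92.9 to 220 CPM in brain (median 108) and overlapped spleen, with a log2 fold change of -0.22 ± 0.32 (SE). Prdm1 ran from 0.83 to 84.8 CPM in brain with a median of 17.3, a far wider spread than its 17.4 to 31.5 CPM in unstimulated spleen. Zeb2 ran from 6.59 to 65.6, Id2 from 4.97 to 76.8 and Runx3 from 43.0 to 113 CPM in brain, with log2 fold changes of -0.48 ± 0.71, -0.72 ± 0.6 and -0.27 ± 0.37 (SE). Zfp683, the factor named for resident cells, was at 9.16, 8.52 and 18.9 CPM in 3 of 6 brain libraries and at 0.11 CPM or less in the other 3, with a log2 fold change of 0.27 ± 1.51 (SE). No difference of these 6 genes between tissues was detectable against the spread between libraries. The changes of Prdm1, Zeb2 and Zfp683 turned sign without brain replicate 8 (-0.71), spleen replicate 30 (0.44) and brain replicate 11 (-0.54), and that of Zfp683 also without spleen replicate 33 (-0.03).

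Around these genes, 3 of 18 partner factors were higher in brain and none was lower. Bhlhe40, a factor linked to resident T cells, stood at 391 ± 85.7 CPM in brain and 39.5 ± 13.4 in spleen (SD, n = 6 and 5; log2 3.35 ± 0.3, SE). Nfil3 was higher by 3.8. Of 12 T-box target genes 3 were higher, Ifng by 3.33, Fasl by 1.91 and Il2rb, a chain of the receptor for interleukins 2 and 15, by 0.77, and 2 were lower. The lower genes were Klrg1, a receptor of terminal effector cells, at 0.0076 against 7.66 CPM, and S1pr5, an exit receptor gene induced by T-bet and Zeb2, at 0.034 against 9.37 CPM. Neither Tbx21 nor Zeb2 passed the test in this comparison. None of 3 E proteins and Id factors, 10 naive and memory factors and 9 repressed genes was called by edgeR's quasi-likelihood test, with 1, 3 and 2 at an unadjusted p under 0.05. Of 6 CD8 T cell markers 3 were higher in brain, with all 6 above 0 (median 0.74). Markers of other cells differed too. The brain cell markers summed to 66.3 to 642 CPM in brain and 42.0 to 51.8 in spleen, with Ttr at 197 and 0.0089 CPM (log2 13.35 ± 1.64, SE). Nearly all of the spleen sum was Mbp, at a mean of 46.5 CPM. Lower in brain were Igj, a plasma cell gene, at 0 against 17.3 CPM, Aif1, a macrophage and microglia gene, at 0 against 3.62, and Tcrg-C1, of gamma delta T cells, at 0.070 against 5.11. Aif1 was the 1 call among 7 microglia markers tested, of which 5 had changes above 0 (median 0.44). P2ry12, another of them, was at 41.95 CPM in brain and 1.113 in spleen (log2 5.24 ± 1.98, SE). Both of the 2 myeloid markers tested had changes above 0 (median 2.47), with 0 called. The NK cell markers summed to 0.108 to 83.8 CPM in brain (median 0.22) and 9.2 to 64.7 in spleen (median 14.1). The part of these cells in the values of the 7 factors was not tested.

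Age was compared in unstimulated male brain, aged against young, where edgeR's quasi-likelihood test called 0 of 8068 genes (0%), with 374 at an unadjusted p under 0.05, and DESeq2 called 72. None of the 6 factors tested was called, none had an unadjusted p under 0.05, and DESeq2 called none of them. Tbx21 was at 49.4, 129, 83.4, 174 and 77.7 CPM in young and 54.3 to 181 in aged males, with a log2 difference of 0.04 ± 0.62 (aged minus young, SE). Eomes was at 111, 18.4, 14.6, 108 and 131 CPM in young males, and the 2 low libraries, replicates 3 and 4, lay below every aged library (log2 0.76 ± 0.7, SE). Id2 was at 126, 40.9, 109, 52.1 and 102 CPM in young and 4.97 to 76.8 CPM in aged males, with a log2 difference of -1.29 ± 0.84 (SE, adjusted p = 0.99, edgeR's quasi-likelihood test). The young Prdm1 levels of 0.089 to 20.5 CPM, Zeb2 of 32.9 to 58.9 and Runx3 of 37.9 to 150.0 all overlapped the aged ones. Zfp683 was filtered out here because it had 0 counts in 4 of 5 young libraries and 39 counts (2.84 CPM) in replicate 6, while the 6 aged libraries held 244, 1, 0, 175, 386 and 1 counts. A count of 0 in the young libraries allows up to 0.21 to 0.27 CPM.

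Sex was compared in unstimulated aged brain, female against male, where 0.15% of 8691 genes were called. None of the 7 factors was called by edgeR's quasi-likelihood test, none had an unadjusted p under 0.05 and DESeq2 called none of them. Id2 was at 61.1, 65.4, 69.3, 200.4 and 57.1 CPM in females and 4.97 to 76.8 in males, and the high value was in replicate 16. As TPM every female library (60.36 to 209.61) lay above every male library (3.43 to 50.23). How many of all genes separate on that scale was not counted. The TMM factors ran from 1.229 to 1.425 in females and from 0.9 to 1.086 in males. The log2 difference of Id2 was 1.42 ± 0.74 (female minus male, SE, unadjusted p = 0.071, adjusted p = 1, edgeR's quasi-likelihood test). Zeb2 was at 53.9, 69.4, 4.16, 91.8 and 156 CPM in females and 6.59 to 65.6 in males, a log2 difference of 1.19 ± 0.86 (SE). Tbx21, Eomes, Prdm1, Runx3 and Zfp683 differed by -0.3, -0.36, -0.26, -0.04 and 0.68, each less than its SE. The partner and target lists had 0 genes called by edgeR's quasi-likelihood test for age and for sex.

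In stimulated against unstimulated aged female brain 6.09% of 6305 genes were called and none of the 7 factors was, with none at an unadjusted p under 0.05 and none by DESeq2. Tbx21 was at 155, 119, 7.38, 85.3 and 1.83 CPM in the stimulated libraries and at 38.8, 124, 55.2, 137 and 55.3 CPM in the unstimulated ones. On the CPM scale stimulated values lay both above and below the unstimulated range, and the log2 fold change was 0.11 ± 1.18 (SE). As TPM, Tbx21 ran from 0.27 to 36.31 stimulated and from 20.24 to 67.73 unstimulated, so no stimulated library lay above that range. The TMM factors ran from 0.493 to 0.787 in the stimulated and from 1.229 to 1.425 in the unstimulated libraries. Eomes was at 0, 5.91, 53.2, 149 and 0 CPM after stimulation, and the library at 149 CPM, replicate 26, was also the one with the highest Zeb2 (73.2 CPM). Runx3 was at 267, 70.9, 75.3, 87.1 and 91.6 CPM stimulated and 37.9 to 74.9 unstimulated, a log2 fold change of 1.23 ± 0.95 (SE). As TPM the Runx3 median was lower after stimulation, at 13.57 against 28.58. Prdm1 ran from 10.2 to 62.7, Id2 from 0 to 65.5 and Zfp683 from 0 to 6.24 CPM after stimulation. As TPM the Prdm1 median was 3.84 stimulated and 7.37 unstimulated. Of the T-box target list Ifng rose, by 3.13 ± 0.59 (log2, SE), and no other gene of the 5 lists was called by edgeR's quasi-likelihood test. Ttr, the transthyretin gene of the choroid plexus, rose in the same comparison, by 7.75 (log2) to 329 CPM. The NK cell markers summed to 0 to 511.9 CPM stimulated (median 0) and 0 to 8.94 unstimulated. The highest sums of microglia markers were 239.4 stimulated and 94.04 unstimulated, and those of gamma delta T cells 121.9 and 11.92. Myeloid markers reached 6.07 and 60.9 CPM, and CD4 and regulatory T cell markers 20.9 and 62.5. The part of brain cell RNA and of these other cells in the values of the 7 factors was not tested. Without replicate 27, which lacked Xist counts, none of the 7 was called either, and the change of Tbx21 was 0.21 ± 1.08 (log2, SE).

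In aged male brain, where stimulated libraries were the smallest, most of the summed level came from a single library for 5 of the 7 genes, all but Tbx21 and Runx3. Prdm1 was at 0, 451, 0.85 and 4.92 CPM, so replicate 20 held 98.7% of the summed CPM. Zfp683 was at 0, 0, 166 and 0 CPM, all of it 391 counts of replicate 21. Zeb2 was at 75.6, 0.44, 0 and 0 CPM, and Eomes at 131, 0, 2.55 and 17.7 CPM, both highest in replicate 19. Id2 was at 0, 54.8, 20.01 and 0 CPM. Runx3 was at 56.3, 54.4, 44.7 and 3.94 CPM, similar in 3 libraries and low in replicate 22. The high levels of Prdm1, Zeb2 and Zfp683 came from 3 different libraries, and the other libraries were at 4.92 CPM or less.

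Tbx21 was low in every library, at 6.42, 16.4, 5.96 and 13.8 CPM from 14 to 37 counts, below all 6 unstimulated libraries (54.3 to 181 CPM). Its log2 fold change was -3.13 ± 1.26 (SE, n = 4 against 6, adjusted p = 0.059, edgeR's quasi-likelihood test), with 38.1% of 7540 genes called, 37.4% without overlap and a median of -2.62 over all genes. None of the 7 was called by edgeR's quasi-likelihood test, 1 (Tbx21) had an unadjusted p under 0.05, and DESeq2 called 1, Tbx21 at -2.76. The fall of Tbx21 was close to the median fall of all genes tested, and the falls of CD8 T cell marker genes (5 of 6 called lower, median -4.27) were larger. Prdm1 and Zfp683 had positive changes of 2.29 ± 1.73 and 3.02 ± 2.15 (SE) that turned to -3.7 and -9.37 without replicates 20 and 21, and Zeb2 moved from -0.8 to -7.48 without replicate 19 (adjusted p = 0.019, edgeR's quasi-likelihood test).

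Stimulated brain against stimulated spleen of aged males called 48.5% of 9135 genes, 46.7% lower in brain, with 56.4% without overlap and a median of -3.02. Tbx21 had a log2 difference of -3.42 ± 0.77 (brain minus spleen, SE, n = 4 against 5, adjusted p = 0.0042, edgeR's quasi-likelihood test) and was the only call among the 6 factors tested. Eomes did not overlap either, at 0 to 131 against 237 to 304 CPM, with a log2 difference of -2.61 ± 1.52 (SE, adjusted p = 0.2, edgeR's quasi-likelihood test). Without replicate 19 of stimulated male brain Eomes and Zeb2 were called lower at -5.12 and -7.55, and Zfp683, which then passed the low-count filter, was called higher at 5.97 ± 2.21 (SE, adjusted p = 0.045, edgeR's quasi-likelihood test), with replicate 21 the single brain library in which it had counts. Without replicate 20 Prdm1 was called lower at -5.21. With 46.7% of all genes called lower, 1 of 6 is no result about these factors.

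The difference between the responses of male brain and spleen was tested as an interaction, with 37.8% of 12117 genes called, 35.7% lower in brain, and a median of -4.04. Tbx21 had an interaction of -4.93 ± 0.87 (log2, SE, 20 libraries, adjusted p = 0.00017, edgeR's quasi-likelihood test), being higher in CPM after stimulation in 5 of 5 spleen and lower in 4 of 4 brain libraries. Eomes had -2.72 ± 1.3 (adjusted p = 0.1, edgeR's quasi-likelihood test), and Prdm1, Zeb2, Id2 and Runx3 had 0.35, -0.74, -0.76 and -0.82, each within its SE. The interaction of Zfp683 was 4.99 ± 2.54 (adjusted p = 0.12, edgeR's quasi-likelihood test). It was -7.23 without replicate 21, the single library with counts among the 4 stimulated brain libraries. Without replicate 19 the interactions of Eomes and Zeb2 were called lower at -5.32 and -7.45 (adjusted p = 0.00085 and 6e-04, edgeR's quasi-likelihood test), and without replicate 20 that of Prdm1 was called lower at -5.83 (adjusted p = 0.0082, the same test). With 35.7% of all genes called lower, 1 of 7 is no result about these factors. The comparisons share libraries, so the Tbx21 values in brain are the same ones throughout.

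**Figure D3:**
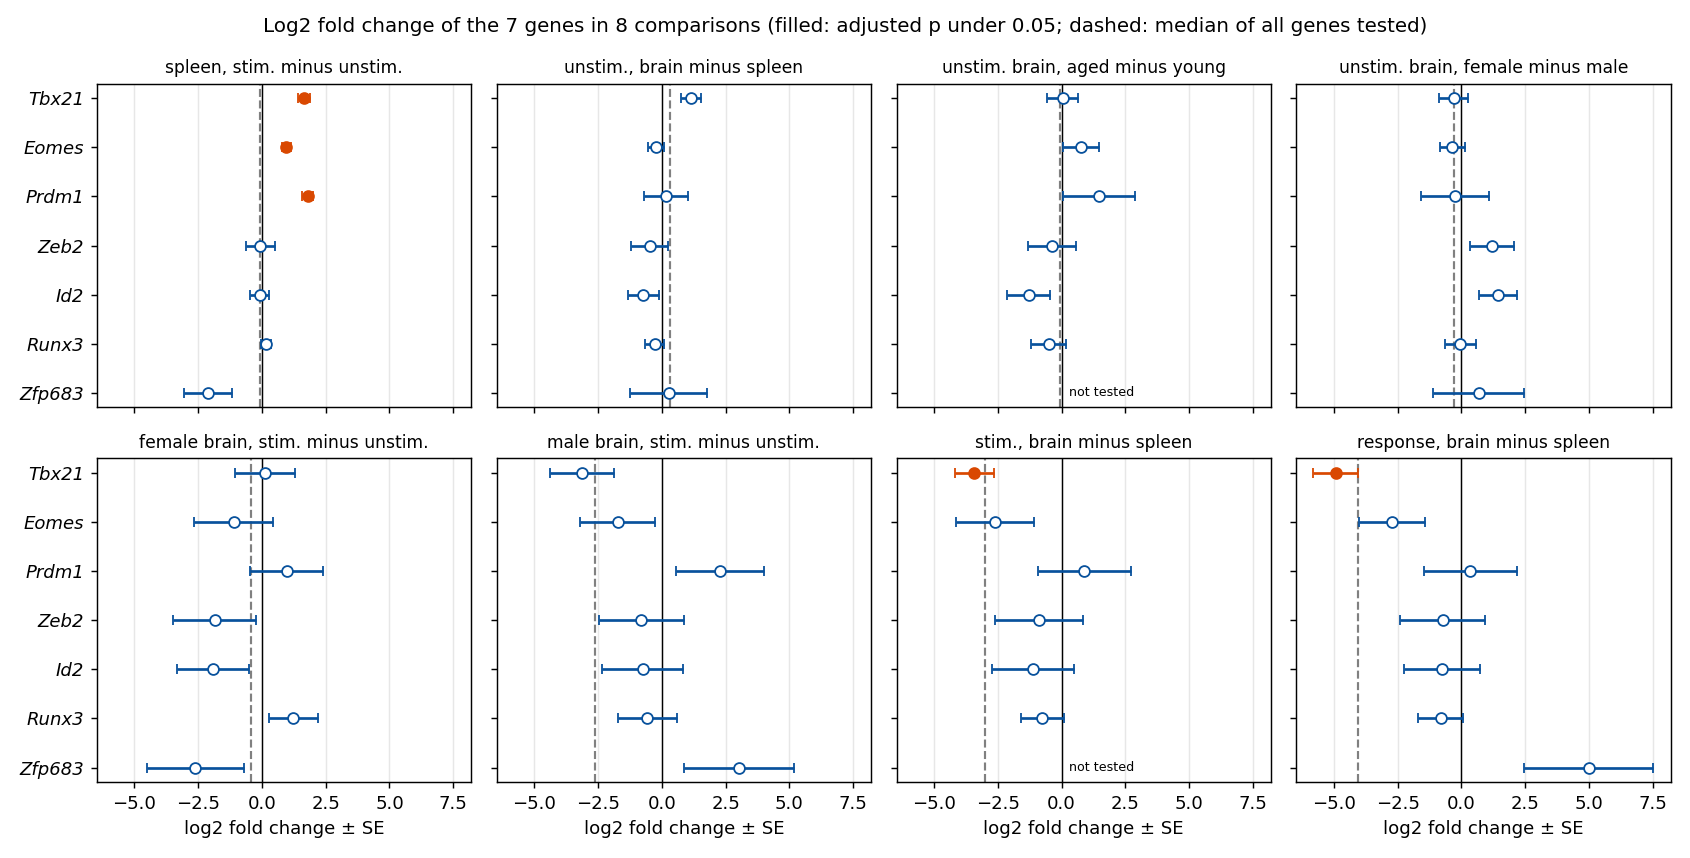
Log2 fold change of each of the 7 genes in each comparison with its standard error as a bar, filled where the adjusted p was under 0.05; the dashed line is the median over all genes tested in that comparison. Tbx21, Eomes and Prdm1 are filled at 0.96 to 1.79 in spleen, and Tbx21 is filled at -3.42 and -4.93 where the median of all genes is -3.02 and -4.04.

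The balance within the 2 pairs of related factors was read per library as the log2 ratio of TPM + 1, as a description. The ratio of Tbx21 to Eomes had a median of -1.67 in unstimulated and -1.27 in stimulated spleen, and Eomes was the higher in all 10 spleen libraries. In unstimulated brain Tbx21 was the higher in 4 of 6 aged male, 3 of 5 young male and 1 of 5 aged female libraries, with medians of 0.09, 1.21 and -0.6. The aged male brain range of -2.24 to 1.07 covered both spleen ranges (-2.11 to -0.33 and -1.51 to -0.1), and those of young male (-1.73 to 2.71) and aged female brain (-1.18 to 1.51) overlapped them. The ratio of Prdm1 to Zfp683 had a median of 0.89 (-0.6 to 2.53) in unstimulated and 3.3 (2.64 to 4.32) in stimulated spleen, and these ranges did not overlap. In unstimulated aged male brain it ran from -2.37 to 4.05, so either gene could be the higher.

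**Figure D4:**
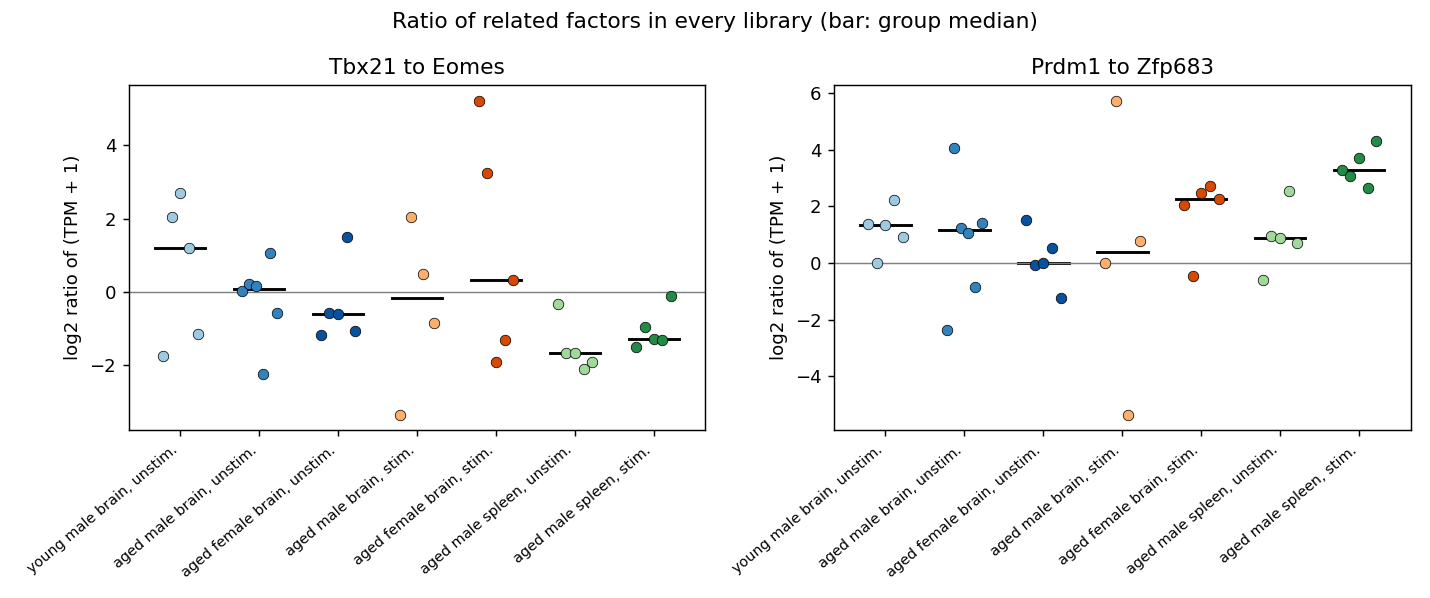
Log2 ratio of Tbx21 to Eomes and of Prdm1 to Zfp683 from TPM + 1 in every library by group; each point is a library, each bar a group median, and 0 means equal levels. All 10 spleen libraries lie below 0 for Tbx21 to Eomes, and stimulated spleen (2.64 to 4.32) lies above unstimulated spleen for Prdm1 to Zfp683.

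Across the 26 libraries that are not stimulated brain, the 7 factors followed each other little. Spearman's rho of CPM between Tbx21 and Eomes was 0, the highest of the 21 pairs was Eomes with Prdm1 at 0.5, and the lowest was Eomes with Id2 at -0.28. These points share groups and library depth, so they are given as a description. The search for like patterns began from 12276 genes, the 7 factors included. Predicted, clone-named, unnamed and mitochondrial genes were then left out. The patterns most like Tbx21 were those of Cd69, the activation and residency marker, and Btg2, each at 0.8. For Eomes they were Btg3 and Zbtb32 at 0.79, for Prdm1 Gata3 at 0.79 and Cep110 at 0.76, and for Runx3 Pdgfb and Plekhf2 at 0.79. Zfp683 was nearest to Nsun5 at 0.82 and Rai1 at 0.78, while Zeb2 (Ern1, 0.67, and March7, 0.66) and Id2 (Lrmp, 0.66, and Txlng, 0.65) had weaker nearest patterns.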

How the data were processed

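Sequencing of RNA from sorted mouse CD8 T cells gave 35 libraries, and the sample titles put them into 7 groups. Reads were aligned with Bowtie2 2.2.0 and quantified with RSEM 1.2.12 on mm10, per the submitters' processing notes. Which annotation was used, and whether strand was, is not given in the sources used here. The authors deposited whole-number counts for the whole series, and these differ by at most 0.5 from the expected counts that the authors deposited per library. Per the file headers, TPM values are the authors' abundances per length, used for levels between genes, and the authors' FPKM values were not used. RSEM shares reads between similar sequences, and without stated strand antisense genes are uncertain.

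Counts were fitted in R 4.3.3 with edgeR 4.0.16: a filterByExpr minimum count of 10, TMM scaling, robust quasi-likelihood fits of the groups compared, 2-sided tests, and Benjamini-Hochberg adjustment over all genes tested with a threshold of 0.05. Standard errors are the log2 fold change divided by the square root of the F statistic. CPM levels use TMM factors over the 35 libraries. The check on simulated counts preceded the fits. Alternatives were DESeq2 1.42.0, its size factors, no low-count filter, a fit of all 35 libraries, mitochondrial genes left out, hyphenated titles only and each library left out. The members and lists were chosen with earlier results of these data known. Named list genes were at most 2 called genes of each list in each direction, those that changed most with a mean of at least 5 CPM in the higher group, or else the 2 highest by mean CPM; nearest patterns were the 2 highest Spearman correlations without predicted genes. Il2rb between tissues and the marker genes were named after their values were seen. Some genes that the rule names are left out here. Gene positions come from GENCODE M21 (GRCm38, which is mm10).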

Additional observations from a re-analysis of the deposited data

Results flagged for a closer look

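Of 49 sets of a gene in a group, 12 (24.5%) held a library whose gap to the next, divided by the range of the group, was above the 95% critical value of Dixon's test. That critical value is for normally distributed data. CPM was used untransformed and has a floor at 0, so the share that chance gives here is not known. In stimulated male brain the flagged values were Eomes at 130.62 CPM and Zeb2 at 75.58 CPM in replicate 19, Prdm1 at 451.13 CPM in replicate 20 and Zfp683 at 166.44 CPM in replicate 21. In stimulated female brain they were Runx3 at 266.61 CPM in replicate 23, Zfp683 at 6.24 CPM in replicate 24 and Zeb2 at 73.18 CPM in replicate 26. In unstimulated brain they were Prdm1 at 84.77 CPM in aged male replicate 8, Id2 at 200.4 CPM in aged female replicate 16 and Zfp683 at 2.84 CPM in young male replicate 6. In unstimulated spleen replicate 30 held both Zeb2 at 142.36 CPM and Zfp683 at 13.67 CPM. All 12 were the highest library of their group. Tbx21 was also flagged for its interaction between male brain and spleen, -4.93 on the log2 scale (adjusted p = 0.00017, edgeR's quasi-likelihood test over 20 libraries). The median over all genes tested was -4.04, and 37.8% of 12117 genes were called, 35.7% lower in brain. Beside that share, 1 call among 7 factors is no result about these factors.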

How the results depend on the processing

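No paired analysis was possible because the replicate numbers in the titles differ between all groups. Of the 3 calls in spleen, all held under DESeq2, its size factors, no filter, mitochondrial genes left out and each library left out, and 0 held in the fit of all 35 libraries. DESeq2 called 1 factor for unstimulated tissue, 1 for male brain stimulation and 2 for stimulated tissue (Eomes at -2.72, adjusted p = 0.043), and the fit of all 35 libraries called 1 for male brain stimulation (Tbx21 at -3.28). With 1 library left out, the factors called ran from 0 to 1 for male brain stimulation, from 1 to 4 for stimulated tissue and from 1 to 3 for the interaction; the highest counts came without stimulated male brain replicate 19 (3 lower and 1 higher for stimulated tissue, 3 lower for the interaction). On the CPM scale the order of groups for Runx3 was the same as on TPM in 13 of 21 pairs; the cause was not tested.

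Some small changes turned sign. Age changed Tbx21 by -0.01 with DESeq2 and with its size factors, sex changed Runx3 by 0.07 with both, female brain stimulation changed Tbx21 by -0.16 without the filter and by -0.03 in the fit of all 35 libraries, and the interaction of Id2 was 0.14 and 0.15 with DESeq2 and its size factors. With 1 library left out, sign changes gave ranges of -0.34 to 0.86 for Zeb2 and -0.33 to 0.19 for Id2 in spleen stimulation, -0.71 to 0.43 for Prdm1, -0.76 to 0.44 for Zeb2 and -0.54 to 1 for Zfp683 in unstimulated tissue, and -0.18 to 0.29 for Tbx21 with age. They were -0.73 to 0.62 for Prdm1 and -0.15 to 0.17 for Runx3 with sex, -0.55 to 0.35 for Tbx21 in female brain stimulation, and -3.7 to 3.19 for Prdm1 and -9.37 to 3.38 for Zfp683 in male brain stimulation. They were -5.21 to 1.26 for Prdm1 in stimulated tissue, and -5.83 to 1.28 for Prdm1 and -7.23 to 5.92 for Zfp683 in the interaction.

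Counts over all genes moved by over 1.5 times as follows. Spleen stimulation gave 2080 and 53 in the fit of all 35 libraries, unstimulated tissue 814 and 1677 without the filter, age 0 and 72 with DESeq2, 25 without the filter and 1 in the fit of all 35 libraries, and sex 13 and 23 with DESeq2, 6 with its size factors and 29 without the filter. Female brain stimulation gave 384 and 878 with DESeq2, 704 without the filter, 2549 in the fit of all 35 libraries and 135 with hyphenated titles only, and male brain stimulation 2875 and 5018 in the fit of all 35 libraries. With 1 library left out these ran from 0 to 1 for age, 4 to 15 for sex and 49 to 596 for female brain stimulation. The size factors moved the median over all genes from -0.28 to -0.16 for sex, from -2.62 to -2.46 for male brain stimulation and from -4.04 to -3.33 for the interaction. Depth limits the stimulated brain libraries most, since 1 count there is worth up to 0.985 CPM.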
